A study of Mus musculus with 8 samples.

Results

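The 10 genes described here form the switch by which a cell leaves G1, the phase before DNA is copied, and they were chosen by name: the D-type cyclins Ccnd1, Ccnd2 and Ccnd3, the kinases Cdk4 and Cdk6, the inhibitors Cdkn1a, Cdkn1b and Cdkn2c, and the pocket proteins Rb1 and Rbl2. All 10 were found among the 55933 genes of the deposited table, and all 10 were among the 15143 genes tested. RNA was measured by sequencing in mammary epithelial cells of 4 control mice and 4 cKO mice on a C57BL/6 background, all females and all at pregnancy day 14.5, each mouse giving 1 library. The cKO mice carried K14-rtTA, teto-Cre and floxed Bmpr1a (fl/fl), so that doxycycline (Dox) in the drinking water switched on Cre recombinase where the K14 promoter is active, which in this gland is the myoepithelial layer. Control mice are named WT in the sample labels and littermates in the methods. Their exact alleles, and whether they drank Dox, are not given in the sources used here. The glands were digested with collagenase and hyaluronidase and red cells were lysed, so a library holds the whole epithelial preparation, in which Bmpr1a (a type I receptor for bone morphogenetic proteins, BMPs) was targeted in only a part of the cells.

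A D-type cyclin binds Cdk4 or Cdk6, and the active kinase phosphorylates the pocket proteins, which releases E2F transcription factors and lets the cell enter S phase. Inhibitors act at the same point: INK4 proteins such as p18 (Cdkn2c) bind Cdk4 and Cdk6 alone, while the CIP/KIP proteins p21 (Cdkn1a) and p27 (Cdkn1b) bind whole cyclin-kinase complexes. In the mammary gland, cyclin D1 is known from knockout mice to be needed for the growth of alveoli in pregnancy, and it acts downstream of progesterone, RANKL and prolactin.

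Each library held between 16123108 and 19896988 reads on genes. FPKM (fragments per kilobase of gene length, scaled to library size by size factors) allow levels to be compared between genes as well as between libraries. Bmpr1a, the targeted gene, was at 10.6, 11.7, 8.74 and 9.52 FPKM in control replicates 1 to 4. It was at 12.0, 12.0, 10.2 and 10.4 FPKM in the libraries labelled cKO. Its RNA was not lower in the libraries labelled cKO (log2 difference 0.13, SE 0.10, unadjusted p = 0.217 from limma), and 2 of 3 blocked fits gave it as higher (unadjusted p = 0.0376 for the set block, 0.0494 for limma-voom blocked by replicate number, and 0.052 for limma blocked by replicate number, adjusted p = 0.203, 0.222 and 0.247). Thus every direction below rests on the labels, and a cKO library is a library labelled cKO. The value sums all exons of the gene, and a deletion within the gene or in a minority of the cells is not resolved by it. Control and cKO libraries numbered 1 and 2 deviated from their group means in like directions, as did those numbered 3 and 4. The mean correlation over genes was 0.13 for different numbers within a set and -0.12 between the sets. Deviations from a group mean cancel for each gene, so the value between the sets largely follows from those within and is not separate evidence. The sets were read from these data, and differences are also given within each of them. Nothing in the labels or methods says what the sets are.

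Averaged over the 8 libraries, Cdkn1a had the highest level of the 10 genes, at 87.1 FPKM. Cdk4 followed at 43.4 FPKM, Ccnd1 at 31.8 FPKM and Cdkn1b at 22.0 FPKM. These levels kept their order in all 8 libraries, and the ranges of neighbours in this order did not overlap. A second tier followed with Ccnd2 at 5.61, Rb1 at 5.21, Ccnd3 at 5.03 and Cdk6 at 4.32 FPKM. Within this tier the ranges of neighbours overlapped, and the order was not the same in every library (Rb1 lay above Ccnd3 in 4 of 8). Cdkn2c at 2.84 FPKM was below Cdk6 in each of the 8 libraries although their ranges overlapped, and Rbl2 had the lowest level at 1.34 FPKM. The reads behind these values ran from 99 to 193 per library for Cdkn2c and from 4076 to 7191 for Cdkn1a, so counting error weighs more on the former.

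**Figure D1:**
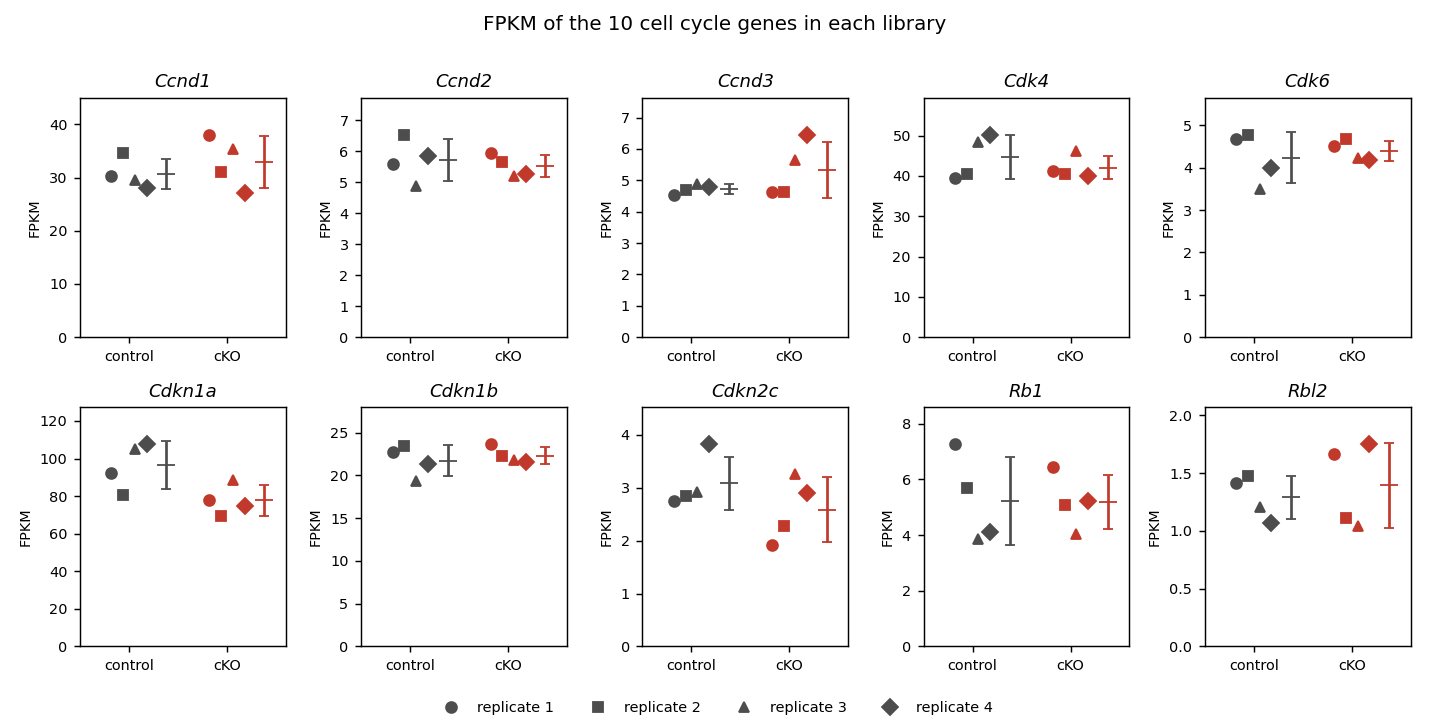
FPKM of each of the 10 genes (vertical axes from 0, on a different scale for each gene) in the 4 control and 4 cKO libraries. Symbols mark the replicate number, and the bar beside each group is its mean ± SD. For every gene the 2 groups overlap, Cdkn1a lies lowest in cKO replicate 2 at 69.5 FPKM, and Rb1 is higher in replicate 1 than in replicates 2, 3 and 4 of its group.

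Among the D-type cyclins, Ccnd1 (chromosome 7, 144929931 to 144939925, minus strand, GRCm38) was the main transcript in this gland. It was at 30.3, 34.7, 29.5 and 28.1 FPKM in control replicates 1 to 4. In cKO replicates 1 to 4 it was at 38.1, 31.1, 35.4 and 27.1 FPKM. The cKO libraries held both the highest and the lowest of the 8 values, so the control range lay within theirs. The log2 difference was 0.09 (SE 0.11, 95% interval -0.16 to 0.34, unadjusted p = 0.42 from limma), which as a fold covers 0.897 to 1.27. Replicates 1 and 2 alone gave 0.08, and replicates 3 and 4 gave 0.10. Of the exon bases of Ccnd1, 23.4% are shared with LTO1, a gene of the opposite strand with up to 270 reads per library, where Ccnd1 had 2325 or more.

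Ccnd2 (chromosome 6, 127125162 to 127152193) and Ccnd3 (chromosome 17, 47505051 to 47599691) encode the cyclins that can stand in for cyclin D1 in many tissues. Ccnd2 was at 5.58, 6.53, 4.87 and 5.83 FPKM in control libraries and at 5.94, 5.64, 5.19 and 5.26 FPKM in cKO libraries. All 4 cKO values lay inside the control range (log2 difference -0.04, SE 0.09, 95% interval -0.23 to 0.16, unadjusted p = 0.666). Ccnd3 was at 4.52, 4.70, 4.90 and 4.80 FPKM in control libraries and at 4.62, 4.63, 5.64 and 6.46 FPKM in cKO libraries. Its control libraries were close together (SD 0.162), and of the cKO libraries only replicates 3 and 4 lay above them. The log2 difference of Ccnd3 was 0.14 (SE 0.10, 95% interval -0.09 to 0.36, unadjusted p = 0.201, exact two-sided permutation p = 0.343). Replicates 1 and 2 gave a difference of 0.00 and replicates 3 and 4 of 0.27, and the difference was 0.05 without cKO replicate 4. In that library the summed FPKM of 12 genes known to respond to tissue digestion was 2801, against 1511 to 1988 in the other 7 libraries. Of these genes, Hspa1a and Hspa1b stood out there, at 284 and 574 FPKM against at most 90.4 and 287 elsewhere. Fos was at 127 FPKM there and at 120 in cKO replicate 1, where Ccnd3 was at 4.62. The part of the digestion response in the Ccnd3 value was not tested. Ccnd3 shares 4.1% of its exon bases with Bysl of the opposite strand, which had up to 863 reads.

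Put together, the D-type cyclins summed to between 38.7 and 48.6 FPKM per library. Ccnd1 supplied 74.5% ± 1.35 of this in the 4 control libraries and 75.0% ± 3.66 in the 4 cKO libraries (mean ± SD). Ccnd2 supplied 13.9% ± 1.10 and 12.7% ± 1.15, and Ccnd3 supplied 11.6% ± 1.07 and 12.4% ± 3.04. The shares of Ccnd1 and Ccnd3 differed between the groups by less than the SD between mice, at 0.412 and 0.807 percentage points. With a library left out these ran from -0.697 to 2.13 and from -0.609 to 1.77, highest for Ccnd1 and lowest for Ccnd3 without cKO replicate 4. That of Ccnd2 differed by -1.22 percentage points, close to the SD of either group (-1.71 to -0.745 with a library left out in turn, smallest in size without cKO replicate 3), and its ranges of 12.4% to 15.1% and 11.2% to 13.6% overlapped. The share of Ccnd3 was highest in cKO replicate 4, at 16.6%.

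**Figure D2:**
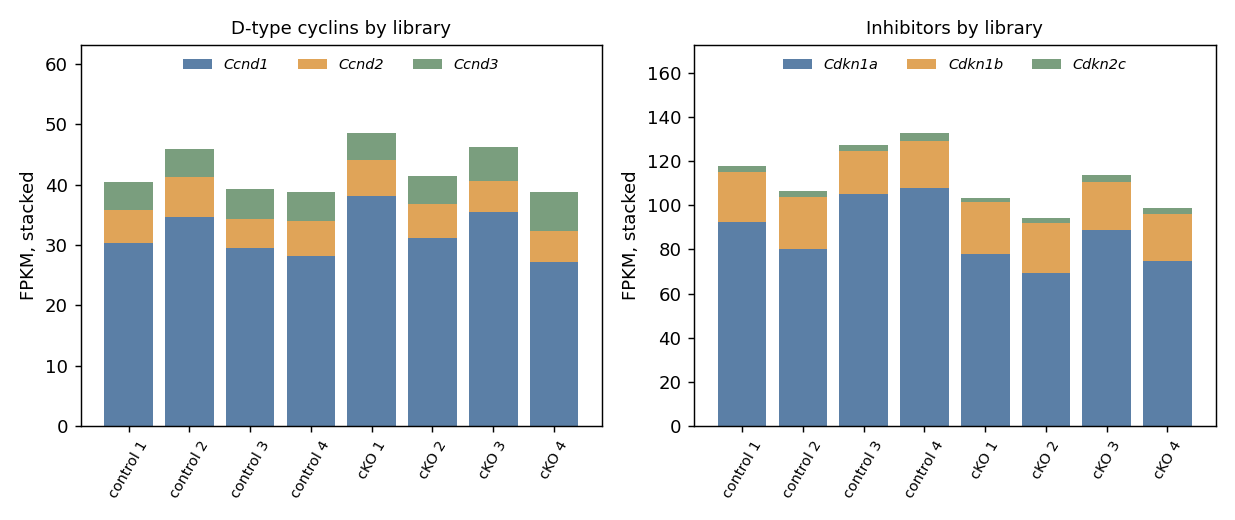
Stacked FPKM (vertical axes from 0) of the 3 D-type cyclins on the left and of 3 inhibitors on the right, with a bar for each of the 8 libraries. Ccnd1 makes up 69.8% to 78.3% of each bar on the left, and Cdkn1a is the largest block of each bar on the right.

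The kinases showed no difference between the groups that passed the test. Cdk4 (chromosome 10, 127063534 to 127067920) was at 39.5, 40.6, 48.6 and 50.3 FPKM in control and at 41.3, 40.6, 46.2 and 39.9 FPKM in cKO libraries. Cdk6 (chromosome 5, 3341485 to 3531008) was at 4.67, 4.78, 3.51 and 3.99 FPKM in control and at 4.52, 4.67, 4.24 and 4.18 FPKM in cKO libraries. In the control group these kinases ran opposite to each other across the sets, with Cdk4 higher and Cdk6 lower in replicates 3 and 4. The log2 difference of Cdk4 was -0.08 (SE 0.09, 95% interval -0.29 to 0.13, unadjusted p = 0.403), made up of 0.03 in replicates 1 and 2 and -0.20 in replicates 3 and 4. That of Cdk6 was 0.05 (SE 0.09, 95% interval -0.15 to 0.26, unadjusted p = 0.591), with -0.03 and 0.13 in the same sets. Per length, Cdk4 RNA was 10.8 ± 2.78 times that of Cdk6 in the controls and 9.57 ± 0.96 times in the cKO group (mean ± SD, n = 4 each). Cdk4 shares 19.7% of its exon bases with Tspan31 on the other strand, which had up to 775 reads in a library, and strand-specific counting is not stated.

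Cdkn1a, which encodes p21 (chromosome 17, 29090976 to 29100727, plus strand), was the member with the smallest p. It was at 92.4, 80.4, 105 and 108 FPKM in control replicates 1 to 4. In cKO replicates 1 to 4 it was at 77.8, 69.5, 88.9 and 74.6 FPKM. Of the cKO libraries 3 lay below every control library, and cKO replicate 3 lay above control replicate 2, so the groups overlapped. The means were 96.5 ± 12.7 and 77.7 ± 8.18 FPKM (SD, n = 4 each), a change of -19.5%. On the log2 scale the difference was -0.30 (SE 0.11, 95% interval -0.56 to -0.05, unadjusted p = 0.0234, adjusted p = 0.223 from limma over all genes tested). Within the sets it was -0.23 for replicates 1 and 2 and -0.38 for replicates 3 and 4. An exact two-sided permutation test gave p = 0.0571, where 4 against 4 can reach no less than 0.0286. A gene of the opposite strand, AC167363.2, covers 7.7% of its exon bases and had up to 41 reads.

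The lower Cdkn1a value therefore passed the unadjusted threshold and not the adjusted one. The unadjusted p rose above 0.05 when any of 4 libraries was left out: it was 0.0629 without control replicate 3, 0.0667 without control replicate 4, 0.0668 without cKO replicate 2 and 0.0538 without cKO replicate 4. In the other direction, limma-voom on the reads recovered from the FPKM gave an adjusted p of 0.179, and of 0.042 once the replicate number was also a block. On log2(FPKM + 1), the replicate block gave an adjusted p of 0.0998 and the set block of 0.0877, so 1 of 3 blocked fits passed. Scaling to the same sum in each library (TPM) gave a log2 difference of -0.37 with an adjusted p of 0.105, beside a median shift of -0.05 over all genes. Control replicates 3 and 4, which had the highest Cdkn1a, also had higher marker sums than control replicates 1 and 2 for some cell types. These were myoepithelial (2116 and 2186 against 1606 and 1678 FPKM), luminal (4928 and 5227 against 4503 and 4071) and alveolar markers (3877 and 3939 against 2722 and 2934). Fibroblast markers did not split this way (441, 773, 445 and 920 FPKM in control replicates 1 to 4). Nor did 6 B lymphocyte markers, at 13.5, 4.69, 28.8 and 2.74 FPKM, and between 1.46 and 2.43 in the cKO libraries. The part of other cell types in the Cdkn1a difference was not tested. These are bulk libraries, in which fewer cells of a type and less RNA per cell cannot be told apart.

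RefSeq places 2 start sites in Cdkn1a, and the bases before each are shown with those before Cdkn1b, the other CIP/KIP gene of the 10. Cdkn1a was chosen because it had the smallest p of the 10 genes, and Cdkn1b because it had the smallest spread between mice. Sequences are from the plus strand of GRCm38.p6, 5′ to 3′, cut at the first annotated exon base. Capitals mark, on either strand, a p53 response element in the first, GC boxes (GGGCGG) in the second, and GC boxes and BMP SMAD sites (GGCGCC) in the third.
Cdkn1a, upstream start, chr17:29090729-29090975: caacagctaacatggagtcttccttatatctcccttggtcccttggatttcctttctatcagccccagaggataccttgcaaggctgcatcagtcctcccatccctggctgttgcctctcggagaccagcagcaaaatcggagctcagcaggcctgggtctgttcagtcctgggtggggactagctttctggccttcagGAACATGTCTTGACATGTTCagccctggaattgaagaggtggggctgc
Cdkn1a, downstream start, chr17:29093519-29093768: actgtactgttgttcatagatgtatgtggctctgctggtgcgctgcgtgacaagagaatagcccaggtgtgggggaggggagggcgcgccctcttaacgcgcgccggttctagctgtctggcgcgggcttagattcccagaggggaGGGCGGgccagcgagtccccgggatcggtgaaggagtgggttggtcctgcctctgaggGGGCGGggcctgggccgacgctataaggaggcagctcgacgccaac
Cdkn1b, chr6:134920151-134920400: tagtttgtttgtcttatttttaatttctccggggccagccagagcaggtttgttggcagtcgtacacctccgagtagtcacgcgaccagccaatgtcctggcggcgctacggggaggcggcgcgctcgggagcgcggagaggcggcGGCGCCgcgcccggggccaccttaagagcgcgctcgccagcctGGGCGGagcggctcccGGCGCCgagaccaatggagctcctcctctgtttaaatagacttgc

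Both strands of the 250 bases before each RefSeq start were searched for 9 motifs, and none of the matches in the members' windows overlapped another. Windows were present for 7 of the 10 genes. Ccnd1, Ccnd2 and Rb1 have none in the table used. A p53 response element with at most 1 mismatch to the published consensus was found at position -51 of the upstream Cdkn1a start, and in 0.0578% of the 32851 mouse promoter windows. This motif was added to the search after the sequence had been seen. GC boxes (GGGCGG) were in 6 of the 10 member windows, against 32.7% of all windows. BMP SMAD sites (GGCGCC) were in 3 of the 10, those of Cdkn1b, Cdk6 and Cdkn2c, against 9.59% of all windows. E-boxes (CACGTG), the letters bound by Myc, were in 2 of the 10, with 4 copies before Cdk4, against 6.02% of all windows. STAT sites (TTCNNNGAA, in 7.02% of all windows), CRE (TGACGTCA, in 1.55%) and E2F sites (TTTCCCGC or TTTGGCGC, in 1.3%) had no match in the member windows. CHR (TTTGAA, in 16% of all windows) and the TATA box (TATAAA, in 12.4%) each had a match in 1 member window, before Rbl2 and Cdk6. A match describes letters in a short window and not binding.

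Cdkn1b, which encodes p27 (chromosome 6, 134920401 to 134925513, plus strand), was at 22.8, 23.4, 19.4 and 21.4 FPKM in control and at 23.7, 22.2, 21.8 and 21.6 FPKM in cKO libraries. It varied least of the 10 genes among mice of a group, with an SD of 0.09 on the log2 scale. The difference was 0.04 (SE 0.07, 95% interval -0.12 to 0.20, unadjusted p = 0.602), so as a fold it lay between 0.919 and 1.15. No other gene shares exon bases with it. Relative to Cdkn1b, Cdkn1a RNA was 4.49 ± 0.914 times as high per length in the controls and 3.49 ± 0.42 times in the cKO group (mean ± SD, n = 4 each), with values from 3.43 to 5.43 and from 3.13 to 4.09. The summed FPKM of Cdkn1a and Cdkn1b, without the CIP/KIP gene Cdkn1c, was set against the summed D-type cyclin FPKM. It was 2.91 ± 0.475 times as high in the controls and 2.29 ± 0.175 times in the cKO group (mean ± SD, n = 4 each). The control value of 2.26 in replicate 2 lay inside the cKO range of 2.09 to 2.48, and the other 3 control values lay above it.

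Cdkn2c, the INK4 gene of p18 (chromosome 4, 109660876 to 109667189, minus strand), was at 2.75, 2.84, 2.91 and 3.83 FPKM in control and at 1.91, 2.28, 3.26 and 2.91 FPKM in cKO libraries. In cKO libraries replicates 1 and 2 were below every control library and replicates 3 and 4 were not. The log2 difference was -0.19 (SE 0.14, 95% interval -0.50 to 0.11, unadjusted p = 0.186), and it lay between -0.28 and -0.10 when each library was left out in turn. The remaining INK4 and CIP/KIP genes, named here for their family and outside the rule for named genes, had no unadjusted p under 0.05 where tested. Cdkn2d (p19) had a mean of 4.37 ± 0.494 FPKM in the controls and 4.60 ± 0.416 in the cKO group, and Cdkn2b (p15) of 1.66 ± 0.229 and 1.47 ± 0.346 (SD, n = 4 each). Cdkn1c (p57) was at 7.01 ± 2.02 and 5.53 ± 1.02 FPKM. Cdkn2a, which encodes p16 and p19Arf, had between 1 and 6 reads per library and was below the filter on low values.

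Rb1 (chromosome 14, 73183673 to 73325822, minus strand) and Rbl2, which encodes p130 (chromosome 8, 91070057 to 91123844, plus strand), are the substrates of the D-type cyclin kinases, and Rb1 was the member that varied most between mice of a group. It was at 7.27, 5.69, 3.87 and 4.10 FPKM in control and at 6.43, 5.08, 4.05 and 5.21 FPKM in cKO libraries. The control libraries split by set, and cKO replicate 4 lay just above cKO replicate 2: on average replicates 1 and 2 were 0.58 (log2) above replicates 3 and 4 in control and 0.26 above them in cKO libraries. Between the groups the difference was 0.01 (SE 0.18, 95% interval -0.40 to 0.42, unadjusted p = 0.953), and the interval leaves room for a fold of 0.758 to 1.34. The sets differed in sign, with -0.15 for replicates 1 and 2 and 0.17 for replicates 3 and 4. Rbl2 was at 1.41, 1.47, 1.21 and 1.07 FPKM in control and at 1.67, 1.11, 1.04 and 1.75 FPKM in cKO libraries. The cKO values of Rbl2 lay on both sides of the control range (log2 difference 0.05, SE 0.12, 95% interval -0.22 to 0.33, unadjusted p = 0.67). Genes on the other strand share 14.9% of the exon bases of Rb1 (Rcbtb2 and Lpar6, up to 558 reads) and 21.0% of those of Rbl2 (Aktip and Gm45464, up to 796 reads), and Rbl2 itself had 125 to 246 reads per library.

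At an unadjusted p under 0.05, 1 of the 10 genes was called, Cdkn1a, lower in the libraries labelled cKO. Of all genes tested 16.4% were called at this threshold, 8.85% higher and 7.53% lower, so 1 call in 10 is no more than the background. After adjustment 0 of the 10 passed 0.05, where 0.892% of all genes did, 0.588% higher and 0.304% lower. With limma-voom and the replicate block 1 of the 10 did, Cdkn1a, and with the replicate or set block on log2(FPKM + 1) 0 did. The groups did not overlap for 0 of the 10 genes, against 10.7% of all genes tested. The median log2 difference of the 10 was 0.02, and of all genes 0.00. The median of the sizes of the differences, without their sign, was 0.07 for the 10 genes and 0.11 for all genes. With library totals in place of size factors, the unadjusted calls over all genes split into 863 higher and 1793 lower, and in TPM into 788 higher and 1656 lower, against 1340 higher and 1140 lower in the deposited scaling.

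**Figure D3:**
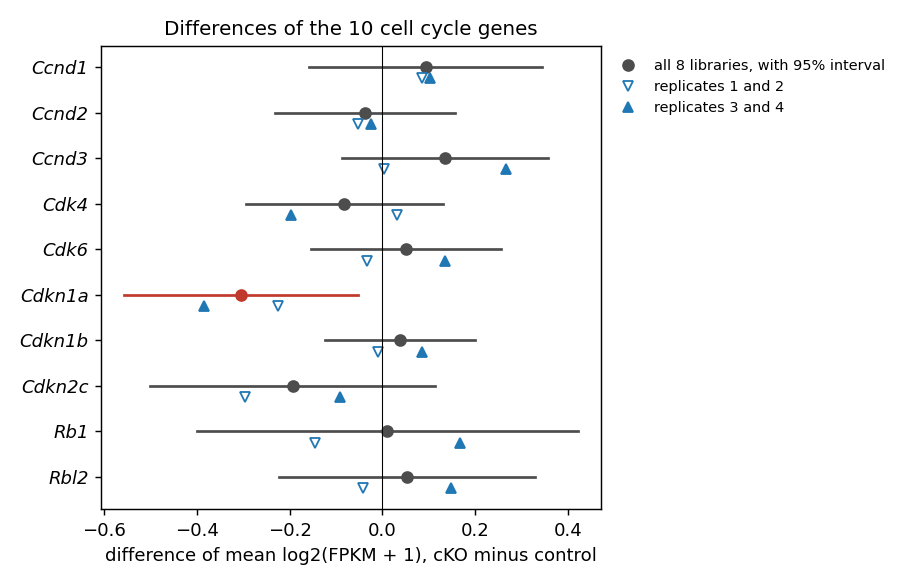
Difference of mean log2(FPKM + 1), cKO minus control, of the 10 genes over all 8 libraries (circles, lines are 95% intervals from limma), and within replicates 1 and 2 (open triangles) and replicates 3 and 4 (filled triangles). The interval of Cdkn1a, in red, runs from -0.56 to -0.05, and those of the other 9 genes include 0.

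Lists of other genes of the pathway, fixed by their known roles, were then counted. The rest of the G1/S switch (cyclin E and Cdk2, the E2F and DP factors, the remaining inhibitors and the Cdk-activating kinase) had 22 of 23 genes tested. At an unadjusted p under 0.05, 1 was higher and 1 lower, against 8.85% and 7.53% of all genes tested. The lower gene was E2f1, the activating factor that Rb1 holds in check. Its FPKM was 5.76, 6.35, 5.87 and 6.77 in control and 4.45, 4.56, 5.47 and 4.30 in cKO libraries. Every cKO value lay below every control value (log2 difference -0.34, SE 0.08, unadjusted p = 0.00287, adjusted p = 0.0996). The higher gene was Ccnh, the cyclin of the Cdk-activating kinase, at 3.79, 3.66, 3.46 and 4.07 FPKM in control and 4.54, 4.45, 5.27 and 4.56 FPKM in cKO libraries, again with no overlap (log2 difference 0.27, SE 0.07, unadjusted p = 0.00555, adjusted p = 0.13). Without cKO replicate 3, 6 genes of this list passed the unadjusted threshold in place of 2.

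Of the genes that act on the turnover of D-type cyclins and p27, 11 of 12 were tested, and 0 were higher and 1 lower, against 8.85% and 7.53% of all genes. The lower gene was Ambra1, the substrate receptor of the ubiquitin ligase that targets D-type cyclins. It was at 10.2, 10.5, 10.2 and 10.2 FPKM in control and at 9.45, 8.38, 9.06 and 9.40 FPKM in cKO libraries (log2 difference -0.16, SE 0.06, unadjusted p = 0.0205, adjusted p = 0.212). Without control replicate 2, and without cKO replicate 2, 0 genes of this list passed. Skp2, which recognises p27, is listed at 0 in all 8 libraries. The list for the DREAM complex, the repressor that p130 forms with E2F4 and the MuvB proteins, had 0 of 10 genes called in either direction by limma. It also holds Mybl2, which is not part of the repressor, and E2f4, E2f5, Tfdp1 and Tfdp2 are counted in the G1/S list as well. Values were lower in cKO for 9 of the 10, with a median of -0.10, where the median of all genes tested was 0.00.

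Signals that are known to drive D-type cyclin transcription, from RANKL and Wnt4 to Stat5 and Myc, had 18 of 20 genes tested. Of these 1 was higher and 0 lower, against 8.85% and 7.53% of all genes tested. The gene called was Tnfrsf11a, the receptor of RANKL, at 4.74, 5.01, 3.95 and 4.49 FPKM in control and 6.04, 6.06, 4.74 and 5.13 FPKM in cKO libraries (log2 difference 0.22, SE 0.09, unadjusted p = 0.0414, adjusted p = 0.282). Leaving out control replicate 1 or 3, or cKO replicate 1 or 2, left 0 called in this list. The RANKL gene itself, Tnfsf11, had a mean of 1.29 ± 0.569 FPKM in the controls and 1.89 ± 0.683 in the cKO group (SD, n = 4 each, unadjusted p = 0.137 from limma). It is named here after its values were seen.

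Because Cdkn1a is a classical target of p53, Trp53 and 11 of the genes it is known to act on were counted as well. Of the 12, 0 were higher and 3 lower at an unadjusted p under 0.05, where 7.53% of all genes were lower. The replicate block called 7 of the 12 in either direction, limma-voom with that block 6, and TPM, library totals and the set block 5 each. Over all genes tested, these fits in the same order called 3124, 3389, 2444, 2656 and 3231 in either direction. The unblocked fit in the deposited scaling called 2480 of 15143 (16.4%). The list's median log2 difference was -0.08. Phlda3, an inhibitor of Akt, was at 30.7, 29.9, 31.5 and 29.1 FPKM in control and at 20.9, 24.9, 26.2 and 23.8 FPKM in cKO libraries, with no overlap (log2 difference -0.33, SE 0.07, unadjusted p = 0.00164, adjusted p = 0.0797). Gadd45a, a stress-induced growth arrest gene, was at 32.7, 27.2, 42.1 and 35.6 FPKM in control and at 21.4, 22.4, 30.1 and 20.5 FPKM in cKO libraries (log2 difference -0.52, SE 0.15, adjusted p = 0.139). Sesn2, a stress-induced regulator of mTORC1, was at 32.2, 32.8, 41.6 and 38.5 FPKM in control and at 22.5, 16.9, 37.3 and 17.9 FPKM in cKO libraries (log2 difference -0.66, SE 0.22, adjusted p = 0.192). In Phlda3, Gadd45a, Sesn2 and Cdkn1a alike, cKO replicate 3 had the highest of the cKO values. That was not particular to p53 targets, as it also held for E2f1, Pcna and Krt14 among others. Within the list it did not hold for Trp53 or Mdm2. Trp53 and Mdm2 (the ligase that p53 induces to limit itself), named for their place in the pathway and outside the rule for named genes, had no unadjusted p under 0.05 (0.123 and 0.996). Mdm2 averaged 20.8 ± 1.67 FPKM in the controls and 20.8 ± 1.03 in the cKO group (SD, n = 4 each), and 4 of the 12 genes had higher values in cKO.

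**Figure D4:**
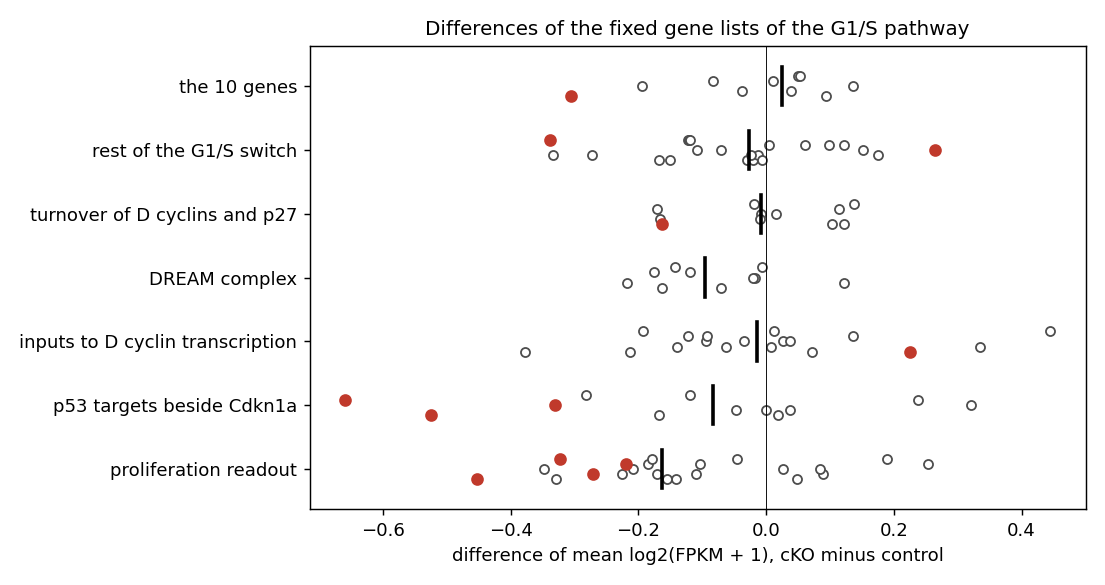
Difference of mean log2(FPKM + 1), cKO minus control, of each tested gene in the 10 genes and in 6 lists of the pathway (points spread vertically only to be seen apart). Red points have an unadjusted p under 0.05 from limma and black bars are medians, which lie at 0.02 for the 10 genes, -0.08 for the p53 list and -0.16 for the proliferation list.

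Downstream of the switch, 22 genes that rise in proliferating cells were counted as a readout, and 0 were higher and 4 lower at an unadjusted p under 0.05, against 8.85% and 7.53% of all genes tested, with a median log2 difference of -0.16. The 4 act in DNA replication. Values were higher in cKO for 6 of the 22, with differences of 0.03 to 0.25 that did not pass the test. Mcm7, a subunit of the replicative helicase, was at 17.4, 18.9, 20.3 and 20.8 FPKM in control and at 13.2, 14.9, 17.1 and 15.9 FPKM in cKO libraries, with no overlap (log2 difference -0.32, SE 0.09, adjusted p = 0.13). Pcna, the sliding clamp of DNA polymerase, was at 66.7, 64.9, 68.3 and 71.4 FPKM in control and at 54.5, 54.8, 65.2 and 50.6 FPKM in cKO libraries (log2 difference -0.27, SE 0.08, adjusted p = 0.158). For Pcna, cKO replicate 3 lay inside the control range. The helicase genes Mcm3 and Mcm6 had log2 differences of -0.45 (SE 0.15, adjusted p = 0.176) and -0.22 (SE 0.10, adjusted p = 0.305), and for both cKO replicate 3 lay inside or above the control range. Without cKO replicate 3, 11 of the 22 genes passed the unadjusted threshold, so the count of this list depends on that library. Over all genes tested, 2515 passed without it and 2480 with all libraries. Mki67, the Ki67 antigen, was at 11.3, 14.2, 9.99 and 13.4 FPKM in control and at 9.44, 13.7, 14.6 and 13.2 FPKM in cKO libraries (log2 difference 0.05, SE 0.15, 95% interval -0.28 to 0.38, unadjusted p = 0.744). After adjustment over all genes, limma on log2(FPKM + 1) called 0 genes of these 6 lists.

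Markers of the cell types in the preparation were summed in each library to set beside these values. Counts of called markers are to be read against the 8.85% higher and 7.53% lower among all genes tested. The luminal markers summed to 4071 to 5227 FPKM in control and 3970 to 5348 in cKO libraries, with 0 of 6 called at an unadjusted p under 0.05. The myoepithelial markers, of the layer that the K14 promoter targets, summed to 1606 to 2186 and 1508 to 2078 FPKM, but the sum rests mainly on Krt14 and Acta2, and of the 8 genes 1 was higher and 2 were lower. These were the oxytocin receptor gene Oxtr (log2 difference 0.85, SE 0.17, adjusted p = 0.0644), and Krt14 (-0.39, SE 0.14, adjusted p = 0.209) and Trp63 (-0.42, SE 0.14, adjusted p = 0.181), all named after their values were seen. The 6 alveolar markers, mostly milk proteins, summed to 2722 to 3939 FPKM in control and 6270 to 10870 in cKO libraries, without overlap, and 5 of the 6 were higher at an unadjusted p under 0.05. Hormone-sensing luminal markers summed to 34.5 to 52.0 and 24.5 to 33.1 FPKM, also without overlap, with 1 of 6 lower. That sum rests mainly on Areg, Cited1 and Foxa1, and the gene called was Cited1 (log2 difference -1.01, SE 0.15, adjusted p = 0.0268 from limma). Esr1, Pgr and Prlr had differences of -0.12, 0.01 and 0.07 that did not pass the test. Lymphocyte markers were low, at 2.72 to 12.0 FPKM in control and 1.80 to 2.69 in cKO libraries for T cells and 2.74 to 28.8 and 1.46 to 2.43 for B cells, and the defining B cell marker Pax5 was at 0 in at least 1 library. Lower values were called for 2 of the 5 T cell markers and 3 of the 3 B cell markers tested. Fibroblast markers summed to 441 to 920 and 299 to 713 FPKM with 0 of 6 called, endothelial markers to 78.0 to 89.2 and 56.9 to 85.7 with 2 of 6 lower, and erythroid markers to 22.5 to 30.0 and 14.5 to 28.0 with 2 of 5 lower. Macrophage markers summed to 744 to 904 and 734 to 834 FPKM, a sum that is mostly Cd14, and all 6 had lower values in cKO, of which Adgre1 (log2 difference -0.41, SE 0.13, adjusted p = 0.166) and C1qa (-0.48, SE 0.15, adjusted p = 0.157) were called. Adipocyte markers summed to 77.6 to 120 and 98.7 to 130 FPKM, mostly from Fabp4, with Lep at 0 in 2 control libraries. Of the 3 tested, Cidec (log2 difference 0.86, SE 0.14, adjusted p = 0.0378) and Adipoq (0.71, SE 0.27, adjusted p = 0.245) were higher. These genes too were named after their values were seen. The part of these shifts in the values of the cell cycle genes was not tested.

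To place the pattern of a member across libraries, the genes closest to it were found by the mean absolute difference of centred log2(FPKM + 1) over the 8 libraries, among 7337 genes with a mean of at least 5 FPKM. Closest to Ccnd1 were Zfp62 at 0.0504, Alg10b, Pdcl, Hif1a and Ncoa7 at 0.0658, where the median gene was at 0.181. Of the 6 other members above that minimum, all were farther from Ccnd1, with Cdkn1b at 0.114 (rank 474), Ccnd2 at 0.126 (rank 931) and Cdkn1a at 0.259 (rank 6166). Nearest to Cdkn1a were Gm10709 at 0.0484, Pfdn2, Snrpb and Gm9843 at 0.0546, against 0.209 for the median gene. Cdk4 ranked 322 for Cdkn1a at 0.114, and both had their highest control values in replicates 3 and 4. Rb1 was at 0.379 from Cdkn1a (rank 6969), the farthest of the members compared. These distances describe 8 libraries and not shared function or control.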

How the data were processed

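RNA-seq libraries of mammary epithelial cells (4 control mice, 4 cKO mice, pregnancy day 14.5) were analysed from the deposited gene table. The authors prepared libraries with a NEBNext Ultra kit, assessed read quality by FastQC, aligned reads to GRCm38 by Hisat2 and calculated FPKM. The submitters' processing notes list featureCounts 1.5.0-p3, StringTie 1.3.3b and mm9. GENCODE vM21 holds 55394 of the table's identifiers, 99.68% of them at identical coordinates, so positions are GRCm38.

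The deposited FPKM multiplied by gene length were whole multiples of a step per library for 100% of values above 0 (tolerance 0.01 of a read), which gave the reads per gene (16123108 to 19896988 per library) and showed that size factors were already applied. Groups were taken from the sample labels. Libraries of a group differed by more than sampling noise.

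Differences were tested with limma 3.58.1 in R 4.3.3 on log2(FPKM + 1), with empirical Bayes and trend and Benjamini-Hochberg adjustment, for the 15143 genes whose FPKM averaged 0.5 or more. The pseudocount understates changes of low genes. The script was tested on simulated data. The difference of means of each member was also compared by exact two-sided permutation tests over 70 splits in Python 3.11.15 with scipy 1.17.1. The thresholds were an unadjusted p under 0.05, as in the study's methods, and an adjusted p under 0.05. Alternatives were a pseudocount of 0.1, TPM, library totals, a second size-factor scaling, no filter, a minimum of 1 FPKM, no trend, limma-voom on recovered reads, blocks by replicate number or by set, and each library left out.

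Promoter sequences are from RefSeq (GRCm38.p6), and the shares of motifs are over all its mouse promoter windows. Named genes were the 10 members, for each list genes with an adjusted p under 0.05 and up to 4 with the smallest unadjusted p under 0.05, Mki67 and Bmpr1a, and the 5 genes closest in pattern to Ccnd1 and to Cdkn1a. Marker lists were given as sums and counts. Some genes that these rules select are not reported here. The members, lists and tests were chosen with earlier results of these data known.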

Additional observations from a re-analysis of the deposited data

Results flagged for a closer look

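Values were examined for 1 library of a group of 4 that lay far from the other 3 (by Dixon's ratio). This held in 9 of 146 groups examined, where chance gives about 1 in 20, or 7.3. Among the members it held for Cdkn2c in control replicate 4, at 3.83 FPKM against 2.75 to 2.91 in the other control libraries. Ccnh in cKO replicate 3 was at 5.27 FPKM against 4.45 to 4.56. Ambra1 in control replicate 2 was at 10.51 FPKM against 10.15 to 10.21, a small gap in a group with little spread. Wap in cKO replicate 4 was at 323 FPKM against 128 to 148, and Hspa1a in the same library was at 284 FPKM against 65.5 to 90.4. In cKO replicate 1, Hba-a1 was at 18.9 FPKM against 10.5 to 11.2, and the erythroid list summed to 28.0 FPKM against 14.5 to 15.2. The genes that act on the turnover of D-type cyclins and p27 summed to 171 FPKM in cKO replicate 1 against 188 to 190. Reads on genes were 18778823 in control replicate 4 against 16456480 to 16642619.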

How the results depend on the processing

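Differences of Ccnd1, Ccnd3, Cdk4, Cdkn1a and Cdkn2c kept their sign under all 19 alternatives per member, while small differences of the other 5 turned. With a library left out, Ccnd1 ran from 0.0218 to 0.18, Ccnd3 from 0.0538 to 0.19, Cdk4 from -0.138 to -0.0248 and Cdkn2c from -0.28 to -0.0982, moves of over 1.5 times. Scaling alone also moved sizes by over 1.5 times. Ccnd1 was 0.0335, Ccnd2 -0.091, Ccnd3 0.0828, Cdk4 -0.143 and Rbl2 0.0152 in TPM. They were 0.0355, -0.089, 0.0849, -0.141 and 0.0174 with library totals. Ccnd2 became 0.0194 (exact p = 0.8) without control replicate 2. In TPM, Cdk6 was -0.0005 (exact p = 1), Cdkn1b -0.0209 (exact p = 0.829) and Rb1 -0.0422 (exact p = 0.943), and with library totals Cdkn1b was -0.0189 (exact p = 0.857) and Rb1 -0.0396 (exact p = 0.971). Leaving out libraries in turn gave -0.10 to 0.0194 for Ccnd2, -0.0189 to 0.10 for Cdk6, -0.0133 to 0.0739 for Cdkn1b, -0.0965 to 0.16 for Rb1 and -0.0179 to 0.13 for Rbl2, with exact permutation p of 0.229 to 0.886, 0.343 to 0.857, 0.371 to 0.914, 0.457 to 1 and 0.343 to 1. For Cdkn1a it gave -0.39 to -0.25, and the unadjusted p missed 0.05 in 4 of these fits. The exact p of Cdkn1a was 0.0286 in TPM, the smallest that 4 against 4 allow. The members called at an unadjusted p ran from 0 to 1 over the libraries left out. The cause of these shifts was not tested.

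The number of genes with an adjusted p under 0.05, 135 in the analysis reported, was 10 with no filter, 252 with limma-voom, 442 with the set block and 0 to 78 with a library left out, where fewer mice are tested. Unadjusted calls were 788 higher in TPM, and 863 higher and 1793 lower with library totals. Over libraries left out, the lists of the G1/S switch, turnover, DREAM, inputs, p53 targets and proliferation had 2 to 6, 0 to 1, 0 to 1, 0 to 3, 3 to 4 and 3 to 11 unadjusted calls. In TPM the DREAM, input and p53 lists had 1, 2 and 5, with library totals the DREAM and p53 lists had 1 and 5, with no filter the inputs had 2, and with the set block turnover had 3 and p53 targets 5.

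Replicate numbers were shared by the groups. Same-numbered libraries deviated together weakly (correlation 0.0797 to 0.137, mean 0.111), and other numbers of the same set did so as much (mean 0.13), so the number was not taken as a pairing. The replicate block left 50 genes past the adjusted threshold, and limma-voom with the block gave 680. In the replicate block the turnover and p53 lists had 2 and 7 unadjusted calls. All genes tested had 3124 such calls in that fit, and 3389 with limma-voom and the block. With limma-voom and the replicate block, 1 member, Cdkn1a, passed after adjustment (0.042), as it did not with the replicate block (0.0998) or set block (0.0877) in limma on log2(FPKM + 1), and the input, p53 and proliferation lists had 2, 6 and 7. No other call on a member changed with the block. Counts were lowest for Cdkn2c (99 to 193 reads per library) and Rbl2 (125 to 246).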
